A study of Homo sapiens with 6 samples.

Results

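The transcripts described here encode the subunits of the m6A writer complex, the enzyme that places most N6-methyladenosine on messenger RNA, together with METTL16, a separate m6A methyltransferase. The 9 genes were chosen by name: METTL3, METTL14, WTAP, KIAA1429 (the older symbol of VIRMA), RBM15, RBM15B, ZC3H13, CBLL1 and METTL16. All 9 were found among the 56305 gene symbols of each library, and all 9 passed the filter on low counts that left 20399 genes for testing. The cells were MOLM13, an acute myeloid leukemia line that carries a FLT3 internal tandem duplication and an MLL fusion gene. They were treated for 24 h with the vehicle DMSO (3 libraries) or with 1 μM ZW27941 (3 libraries), a bivalent molecule that brings METTL3 to the VHL ubiquitin ligase for degradation by the proteasome. No inactive analog of the degrader was sequenced among these libraries, and the labels do not say whether the 3 libraries of a condition came from separate cultures, so the p-values measure the spread between these libraries.

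In the writer complex, METTL3 is the catalytic subunit that transfers a methyl group from S-adenosylmethionine, and METTL14 is its catalytically inactive partner that helps to hold the RNA. WTAP binds this heterodimer and places it in nuclear speckles. KIAA1429, ZC3H13, CBLL1 and the paralogs RBM15 and RBM15B are regulatory subunits that join the complex through WTAP or with it. In myeloid leukemia the complex is known as a requirement for growth and for the block in differentiation. METTL16 works outside this complex on hairpins in the MAT2A transcript and on the U6 small nuclear RNA. ZW27941 acts on protein, while these counts show the transcripts of the complex and not the amount of its proteins. The authors reported that ZW27941 degraded METTL3 and METTL14 protein, but not METTL16, WTAP or RBM15, in NB4 cells, another leukemia line.

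The libraries held 143454176 to 178744976 counts on genes, and between 37.4% and 39.8% of the reads tallied were assigned to no gene. The values below are CPM, the counts of a gene scaled to a common library total with edgeR's TMM factors. A share of a library's RNA was thus measured, and in such bulk samples fewer cells of a type and less RNA per cell cannot be told apart. ZW27941 replicate 3 stood apart from the other libraries of its condition. It had 5.25% of its reads aligned to several places, against 3.63% to 4.07% in the other 5 libraries. Its counts differed from those of ZW27941 replicate 1 with a chi-square per gene of 11.5, where pairs of DMSO libraries gave 4.33 to 5.13 and counting noise alone would give about 1. All 7 markers fixed for the leukemia line were present, the lowest, MEIS1, at 45.0 to 48.0 CPM. Of 10 markers of other cell types, HBB and HBG1 had 0 counts in every library and CD3E and EPCAM had at most 6. Their summed level was 269 to 279 CPM in DMSO and 335 to 343 CPM on ZW27941. Nearly all of it was PECAM1, an adhesion receptor that leukocytes also carry, at 254 to 332 CPM over the 6 libraries. Its part in the results was not tested.

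The 9 genes lie on 9 different chromosomes, so that no result below counts a locus more than 1 time. On GRCh38, in the GENCODE v29 annotation, METTL3 is at chromosome 14, 21498133 to 21511375 on the minus strand, and METTL14 at chromosome 4, 118685368 to 118715433 on the plus strand. WTAP is at chromosome 6, 159725585 to 159756319 (plus strand), RBM15 at chromosome 1, 110338506 to 110346681 (plus strand), and RBM15B at chromosome 3, 51391268 to 51397908 (plus strand). ZC3H13 is at chromosome 13, 45954465 to 46052759 (minus strand), CBLL1 at chromosome 7, 107743697 to 107761667 (plus strand), and METTL16 at chromosome 17, 2405562 to 2511891 (minus strand). Coordinates of KIAA1429 are not given here. RBM15 and RBM15B shared 0 windows of 100 bases between their transcripts, so reads of that length separate the paralogs. The exons of RBM15B overlap those of DCAF1 on the opposite strand over 1325 bases (20% of its exon length). WTAP overlaps SOD2, METTL3 overlaps TOX4, and RBM15 and CBLL1 overlap antisense genes, each over less than 7% of the member's exons. Whether counting used strand is not stated in the sources used here. The WTAP pseudogene WTAPP1 had 0 counts in all 6 libraries.

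Promoters of 8 of the 9 genes, all but KIAA1429, were matched in the RefSeq table of GRCh38.p14 used here. The 250 bases before the RefSeq start of 5 of them are shown. These 5 were picked from the genes that hold CCGGAA or CACGTG. ZC3H13 and METTL16 also hold CCGGAA and are not shown. METTL3, which did not pass the test below, stands with METTL14 and CBLL1, which rose, among those with CCGGAA. A relation of these letters to the changes was not tested. The windows of RBM15, CBLL1 and WTAP lie wholly past the GENCODE v29 gene starts given above, within the genes as annotated there. Capitals mark every match, on either strand, to CCGGAA (an ETS factor core), CACGTG (the E-box of MYC and its relatives), CCAAT (the NF-Y box), GGGCGG (an SP/KLF box), TGACGTCA (the cAMP response element), ATGGCGG (a YY1 core) and the NRF1 motif, and adjoining or overlapping matches run together.
METTL3 (chr14:21511341-21511590, minus strand): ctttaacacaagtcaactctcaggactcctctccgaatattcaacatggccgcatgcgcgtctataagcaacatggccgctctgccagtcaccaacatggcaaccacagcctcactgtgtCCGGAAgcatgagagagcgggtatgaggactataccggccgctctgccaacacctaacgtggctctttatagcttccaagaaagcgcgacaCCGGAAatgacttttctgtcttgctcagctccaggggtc
METTL14 (chr4:118685142-118685391, plus strand): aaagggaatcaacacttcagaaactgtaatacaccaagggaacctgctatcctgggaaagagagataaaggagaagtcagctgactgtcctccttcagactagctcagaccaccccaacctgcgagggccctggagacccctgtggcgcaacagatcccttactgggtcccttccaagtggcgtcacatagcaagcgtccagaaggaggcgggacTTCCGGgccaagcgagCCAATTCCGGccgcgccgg
CBLL1 (chr7:107743892-107744141, plus strand): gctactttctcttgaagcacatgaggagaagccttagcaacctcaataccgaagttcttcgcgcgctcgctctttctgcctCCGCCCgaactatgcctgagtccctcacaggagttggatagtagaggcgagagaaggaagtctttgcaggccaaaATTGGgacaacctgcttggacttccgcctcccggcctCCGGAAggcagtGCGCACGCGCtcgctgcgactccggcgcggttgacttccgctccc
RBM15 (chr1:110339127-110339376, plus strand): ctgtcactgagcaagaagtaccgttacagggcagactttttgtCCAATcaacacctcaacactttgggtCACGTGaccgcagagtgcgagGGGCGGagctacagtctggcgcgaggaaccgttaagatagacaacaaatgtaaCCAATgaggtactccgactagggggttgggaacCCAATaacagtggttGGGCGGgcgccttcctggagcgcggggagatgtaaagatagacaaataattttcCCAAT
RBM15B (chr3:51391035-51391284, plus strand): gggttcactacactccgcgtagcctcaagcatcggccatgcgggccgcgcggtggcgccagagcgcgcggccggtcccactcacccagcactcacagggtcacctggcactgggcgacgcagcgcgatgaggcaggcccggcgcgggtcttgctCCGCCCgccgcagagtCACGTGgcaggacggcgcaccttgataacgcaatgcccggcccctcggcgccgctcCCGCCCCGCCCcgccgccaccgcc
The shares over all promoters given here were counted by promoter and were not limited to genes expressed in these cells. Members were counted by gene and all are expressed, so the shares are not a matched background. CCGGAA was found in METTL3, METTL14, CBLL1, ZC3H13 and METTL16, so in 5 of 8 matched genes, against 14.5% of all 35116 promoters of this length in the table. CACGTG was found in RBM15 and RBM15B, so in 2 of 8, against 6.34% of all promoters. The promoter of RBM15 also held 4 copies of CCAAT, and that of RBM15B held 0. CCAAT was present in 6 of 8 genes (32.01% of all promoters), GGGCGG in 4 of 8 (42.6%), ATGGCGG in 1 of 8 (2.88%, in WTAP), the NRF1 motif in 1 of 8 (5.07%, in CBLL1) and TGACGTCA in 0 of 8 (1.65%). METTL3 and METTL14 both held 2 copies of CCGGAA and 0 copies of CACGTG, but METTL14 held 1 copy of CCAAT and METTL3 held 0. METTL3 and RBM15B were the 2 of the 8 without CCAAT. WTAP has 2 starts in the table, both were searched, and neither window held CCGGAA or CACGTG.

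Of the 9 genes, 7 rose on ZW27941, 0 fell, and METTL3 and WTAP did not pass an adjusted p of 0.05 (quasi-likelihood F-test of edgeR, p-values adjusted by Benjamini-Hochberg over all genes tested). Among all genes tested, 16.3% were called higher and 13.8% lower by the same rule. Since deeply counted genes are called more often, the share was also taken over the 5418 genes at or above the level of RBM15, the lowest of the 9 in CPM (without scaling to length), where 25.5% were called higher and 22.9% lower. Before adjustment, 8 of the 9 had p under 0.05 and a higher level, and 0 a lower one, against 20.7% and 18.9% of all genes tested. In 8 of the 9, all ZW27941 libraries lay above all DMSO libraries, which held for 21.7% of all genes tested and for 30.1% of those at or above the level of RBM15. The reverse order was found in 0 of the 9 and in 19.9% of all genes tested. The median log2 fold change was 0.17 over the 9 genes and −0.0019 over all genes tested. The changes were small: 0 of the 9 reached an absolute log2 fold change of 1 with an unadjusted p under 0.05, a limit passed by 1.55% of all genes tested. A rise of more than 0.25 on the log2 scale with an adjusted p under 0.05 was found for 3 of the 9 (RBM15, KIAA1429 and CBLL1), against 4.80% of all genes. Summed over the 9 genes, the libraries held 818, 813 and 814 CPM (as a share of gene counts, without TMM factors) in DMSO and 924, 931 and 918 on ZW27941. The sum was thus 13.4% higher on ZW27941, with no overlap (exact two-sided permutation test, p = 0.1, the smallest that 3 against 3 libraries allow).

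**Figure D1:**
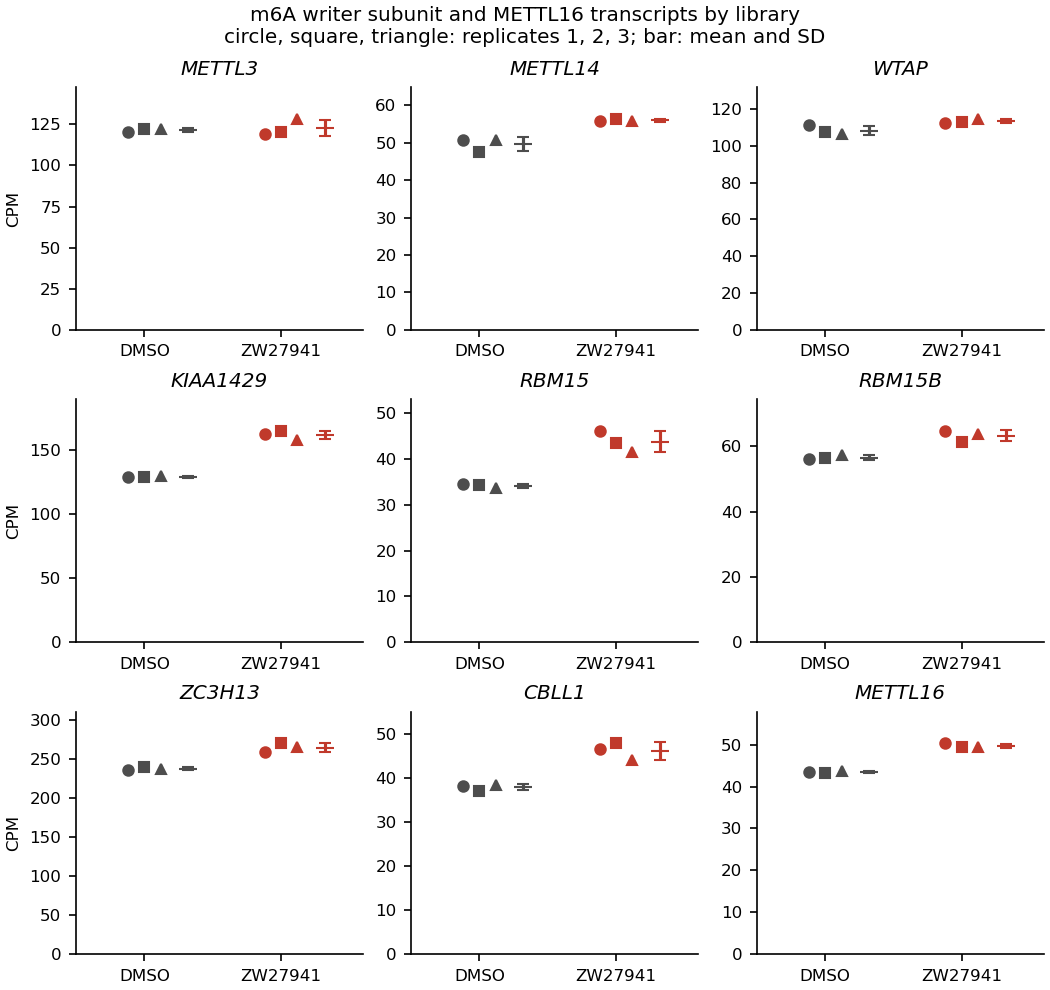
Level of each transcript in each library, in CPM on a linear axis from 0, with circles, squares and triangles for replicates 1, 2 and 3 of DMSO (grey) and ZW27941 (red) and bars for the mean and SD. METTL3 overlaps between conditions, with 1 red symbol below the grey ones, 1 among them and replicate 3 (128 CPM) above them, while in the other 8 genes the red symbols all lie above the grey ones.

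METTL3, the target of the degrader, did not pass the test at the transcript level. It was at 120.2, 122 and 122 CPM in the DMSO libraries and at 119, 121 and 128 CPM in the ZW27941 libraries. The 2 lower ZW27941 libraries lay below or among the DMSO libraries, and only replicate 3 lay above them. The means were 122 ± 1.17 CPM (SD, n = 3) and 123 ± 4.96 CPM (SD, n = 3). With a log2 fold change of 0.013 (95% interval −0.044 to 0.071, adjusted p = 0.765, edgeR), the interval allows a transcript level from 0.970 to 1.05 times that of DMSO. The sign was not stable, since it was −0.023 without ZW27941 replicate 3 and −0.010 with upper quartile normalization. The overlapping gene TOX4 had a log2 fold change of 0.060 (adjusted p = 0.0774, edgeR).

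METTL14, whose protein forms the core heterodimer with METTL3, rose. Its levels were 50.6, 47.5 and 50.8 CPM in DMSO and 55.7, 56.4 and 55.7 CPM on ZW27941. Replicate 2 was the lowest of the DMSO libraries, and the 3 ZW27941 libraries had a mean of 55.9 CPM with an SD of 0.365 CPM. This was a log2 fold change of 0.17 (standard error 0.029, 95% interval 0.11 to 0.23, adjusted p = 1.06e-04, edgeR), or 12.7% more transcript. Without DMSO replicate 2 it was 0.14.

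WTAP, the adaptor of the complex, stood at the edge of the threshold. It was at 111, 107 and 106 CPM in DMSO and at 112.6, 113.0 and 115 CPM on ZW27941. The groups did not overlap, but DMSO replicate 1 (111.1 CPM) lay close under the lowest ZW27941 library. The fitted log2 fold change was 0.067 (95% interval 0.014 to 0.12, adjusted p = 0.0501, edgeR). Over all alternatives the adjusted p ran from 0.0254 to 0.211, and without DMSO replicate 1 it was 0.0254 in edgeR. SOD2, which overlaps WTAP on the opposite strand, fell by 0.25 on the log2 scale (adjusted p = 1.16e-07, edgeR).

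KIAA1429, a scaffold subunit and a guide for methylation near the ends of transcripts, had the lowest p of the 9 and rank 49 of all genes tested. Its levels were 128.6, 128.7 and 129.6 CPM in DMSO and 162, 165 and 158 CPM on ZW27941. The DMSO libraries were nearly identical (SD 0.577 CPM), and every ZW27941 library lay far above them. Its rise was 0.33 on the log2 scale (standard error 0.025, 95% interval 0.28 to 0.38, adjusted p = 2.65e-09, edgeR), or 25.4% more transcript. Leaving out any 1 library gave values from 0.31 to 0.34.

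RBM15, which binds RNA and brings the complex to its sites, had the largest rise of the 9. It was at 34.4, 34.4 and 33.7 CPM in DMSO and at 46.1, 43.6 and 41.6 CPM on ZW27941. The spread on ZW27941 (SD 2.28 CPM) was wider than in DMSO (SD 0.417 CPM), with replicate 1 the highest and replicate 3 the lowest. It rose by 0.36 on the log2 scale (standard error 0.034, 95% interval 0.29 to 0.43, adjusted p = 7.75e-08, edgeR), or 28.1% more transcript. Of all genes tested, 6.46% rose by more.

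RBM15B, the paralog with the same kind of role, also rose. Its levels were 56.1, 56.3 and 57.3 CPM in DMSO and 64.7, 61.4 and 63.7 CPM on ZW27941, with replicate 2 the lowest of the treated libraries. The rise was 0.16 on the log2 scale (standard error 0.027, adjusted p = 1.09e-04, edgeR). The overlapping gene DCAF1 had a log2 fold change of 0.061 (adjusted p = 0.0687, edgeR). Within each library, the log2 ratio of RBM15 to RBM15B was −0.70, −0.71 and −0.77 in DMSO and −0.49, −0.50 and −0.62 on ZW27941. The ratio thus moved toward RBM15 by 0.19 with no overlap (exact two-sided permutation test, p = 0.1, the smallest that 3 against 3 libraries allow).

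ZC3H13, a zinc finger subunit that keeps the complex in the nucleus, had the highest CPM of the 9. It was at 236, 239.6 and 237 CPM in DMSO and at 259, 270.6 and 265 CPM on ZW27941, and the groups did not overlap. ZC3H13 rose by 0.16 on the log2 scale, or 11.4% (standard error 0.024, adjusted p = 4.62e-05, edgeR).

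CBLL1, also known as HAKAI, carries a RING domain of the kind found in ubiquitin ligases. Its levels were 38.2, 37.1 and 38.3 CPM in DMSO and 46.4, 47.8 and 44.0 CPM on ZW27941. Replicate 3 was the lowest treated library and still lay above all DMSO libraries. CBLL1 rose by 0.28 on the log2 scale (standard error 0.032, adjusted p = 7.53e-07, edgeR), or 21.7% more transcript.

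METTL16, the enzyme outside the complex, rose as well. It was at 43.4, 43.2 and 43.7 CPM in DMSO and at 50.3, 49.5 and 49.4 CPM on ZW27941. The groups did not overlap, and the SD was 0.262 CPM in DMSO and 0.510 CPM on ZW27941. METTL16 rose by 0.20 on the log2 scale (standard error 0.027, 95% interval 0.14 to 0.25, adjusted p = 8.82e-06, edgeR). MAT2A, the S-adenosylmethionine synthetase whose transcript METTL16 methylates, was at 408 ± 9.11 CPM in DMSO and 407 ± 4.70 CPM on ZW27941 (SD, n = 3 each). MAT2A thus differed by −0.0047 on the log2 scale (standard error 0.025, adjusted p = 0.911, edgeR).

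**Figure D2:**
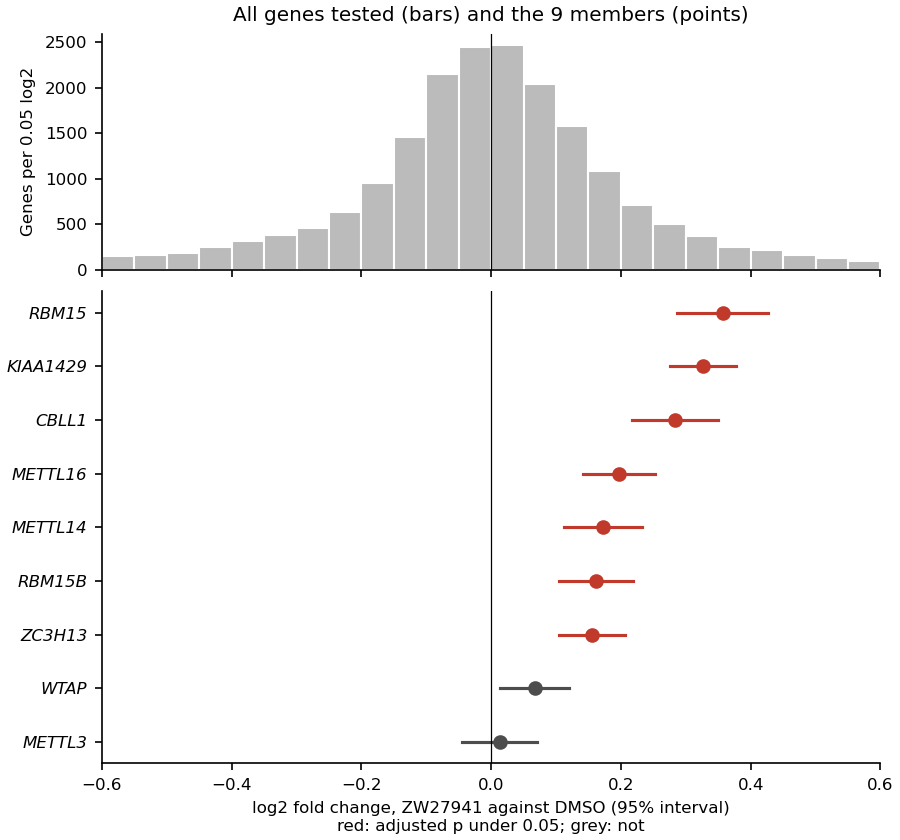
Upper panel, the number of genes tested in each bin of 0.05 of the log2 fold change of ZW27941 against DMSO, drawn from −0.6 to 0.6. Lower panel, the log2 fold change of each of the 9 genes with its 95% interval, red where the adjusted p is under 0.05. All 9 points lie to the right of 0, from METTL3 at 0.013 to RBM15 at 0.36, and only the interval of METTL3 includes 0.

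A ratio of transcripts within a library does not depend on how libraries are scaled to each other, so each member was also set against METTL3. In 7 of the 8 ratios, all ZW27941 libraries lay above all DMSO libraries, and the exception was WTAP. Of the other genes tested, 15.0% had a ratio to METTL3 with no overlap in that direction, and 16.3% of those at or above the CPM of RBM15. The log2 ratio of METTL14 to METTL3 was −1.25, −1.36 and −1.27 in DMSO and −1.10, −1.10 and −1.20 on ZW27941. This ratio thus rose by 0.16, and METTL14 came closer to the higher count of METTL3. For KIAA1429 to METTL3 the log2 ratios were 0.098, 0.076 and 0.084 in DMSO and 0.45, 0.45 and 0.30 on ZW27941. The difference between conditions was 0.31 for KIAA1429, 0.34 for RBM15, 0.27 for CBLL1, 0.18 for METTL16, 0.15 for RBM15B and 0.14 for ZC3H13. The ratio of WTAP to METTL3 overlapped and differed by 0.054 (exact two-sided permutation test, p = 0.2). Each of the other 7 had p = 0.1 in the exact permutation test (0.114 after Benjamini-Hochberg adjustment over the 8 ratios), the smallest p of the design, so none could pass 0.05. In all 8 ratios ZW27941 replicate 3 was the lowest of the treated libraries. All 8 share the METTL3 count of that library as their denominator.

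**Figure D3:**
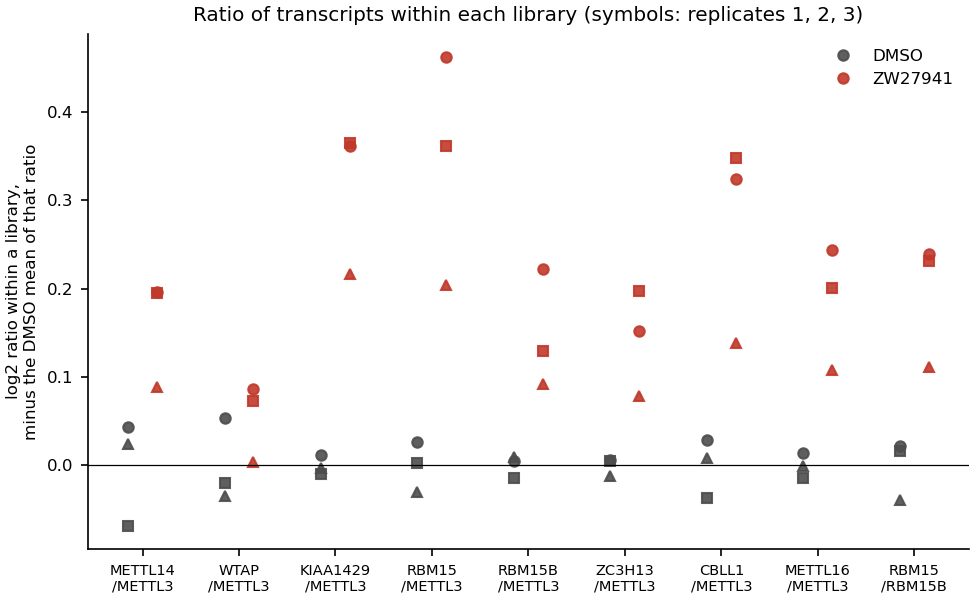
Log2 ratio of each transcript to METTL3, and of RBM15 to RBM15B, within each library, after subtraction of the DMSO mean of that ratio, with circles, squares and triangles for replicates 1, 2 and 3. Red symbols (ZW27941) lie above grey symbols (DMSO) in every column but WTAP, and the red triangle of replicate 3 is the lowest red symbol in each column.

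To order the genes within a condition, levels were set per length, as CPM per kb of exon in GENCODE v29. The CPM and the ratios to METTL3 above are not scaled to length. In DMSO, ZC3H13 (23.2 ± 0.171 CPM per kb; SD, n = 3) and METTL3 (20.6 ± 0.199) stood at the top, above WTAP (16.9 ± 0.394) and KIAA1429 (11.97 ± 0.0536). RBM15B (8.52 ± 0.0977), RBM15 (7.32 ± 0.0893), METTL14 (7.23 ± 0.265) and CBLL1 (6.91 ± 0.126) formed a lower group, and METTL16 (4.86 ± 0.0294) was last. RBM15 and METTL14, and METTL14 and CBLL1, overlapped between libraries and could not be ordered. The transcript of METTL3 thus lay far above that of its partner METTL14 per length. On ZW27941 the upper 4 places and the last were held by the same genes. KIAA1429 was at 15.02 ± 0.310 CPM per kb (SD, n = 3), closer to WTAP at 17.7 ± 0.169. RBM15 reached 9.37 ± 0.488 and overlapped RBM15B at 9.53 ± 0.2504, while CBLL1 at 8.40 ± 0.354 overlapped METTL14 at 8.15 ± 0.0532 (CPM per kb). Exon length counts all annotated exons, so the order depends on which isoforms these cells use.

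Among 8439 genes whose mean log2 CPM was 4 or more, the genes whose profile over the 6 libraries lay nearest to METTL3 were NKG7, TFEB and JTB, with root mean square differences of 0.0058, 0.0093 and 0.0098 in log2 CPM after centring each gene on its mean. Those nearest to KIAA1429 were F3, PECAM1 and TRAM2, at 0.016, 0.016 and 0.017. In this set F3 had a log2 fold change of 0.33, PECAM1 of 0.34 and TRAM2 of 0.30. Values close to that of KIAA1429 follow from how these genes were picked and are no separate result.

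In 6 further lists, 5 of the m6A pathway and 1 of the VHL ligase, 9 of the 38 genes tested rose and 8 fell by the edgeR call used above, so 23.7% were higher. This is close to the 25.5% higher and 22.9% lower found over all genes at or above the CPM of RBM15, and the counts of the single lists below are to be read against those shares. Both m6A demethylases rose, FTO by 0.21 and ALKBH5 by 0.13 on the log2 scale (adjusted p = 1.60e-05 and 0.00127, edgeR). Of 10 readers, the proteins that bind m6A, 2 rose, 1 fell and 7 did not pass, with a median log2 fold change of 0.026. YTHDF2, which directs m6A transcripts to decay, went from 84.5 ± 1.39 to 94.4 ± 0.0895 CPM (SD, n = 3 each), a log2 fold change of 0.16. HNRNPC, an RNA-binding protein whose sites open when m6A is present, fell by 0.12 on the log2 scale.

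The other enzymes that methylate adenosines of RNA, listed with their partner TRMT112, did not share a direction, with 1 of 5 higher and 2 lower. METTL4, which methylates a small nuclear RNA, went from 12.05 ± 0.658 to 15.05 ± 0.170 CPM (SD, n = 3 each), a log2 fold change of 0.32. METTL5, which methylates 18S ribosomal RNA with TRMT112, fell by 0.16 on the log2 scale, and TRMT112 itself had a log2 fold change of 0.029 (adjusted p = 0.461, edgeR). In the cycle that makes and recycles S-adenosylmethionine, the methyl donor, 0 of 8 genes tested rose and 3 fell. At an unadjusted p under 0.05 the numbers were also 0 and 3, where 20.7% of all genes tested were higher and 18.9% lower. AHCYL1, a relative of the enzyme that clears S-adenosylhomocysteine, fell by 0.16 on the log2 scale (adjusted p = 6.19e-05, edgeR). MAT1A was not tested at these counts.

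Of 8 genes known as partners of the complex, 3 rose and 1 fell. SETD2, which makes the histone mark that METTL14 recognizes, went from 129.5 ± 0.870 to 146 ± 3.61 CPM (SD, n = 3 each), a log2 fold change of 0.17. CPSF6, a factor for 3′ end processing that associates with KIAA1429, rose by 0.12 on the log2 scale. The ligase that ZW27941 recruits showed 1 gene higher and 1 lower of 5. VHL had a log2 fold change of 0.078 (adjusted p = 0.0342, edgeR) and TCEB2, the Elongin B adaptor, fell by 0.14 (adjusted p = 5.47e-04, edgeR).

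**Figure D4:**
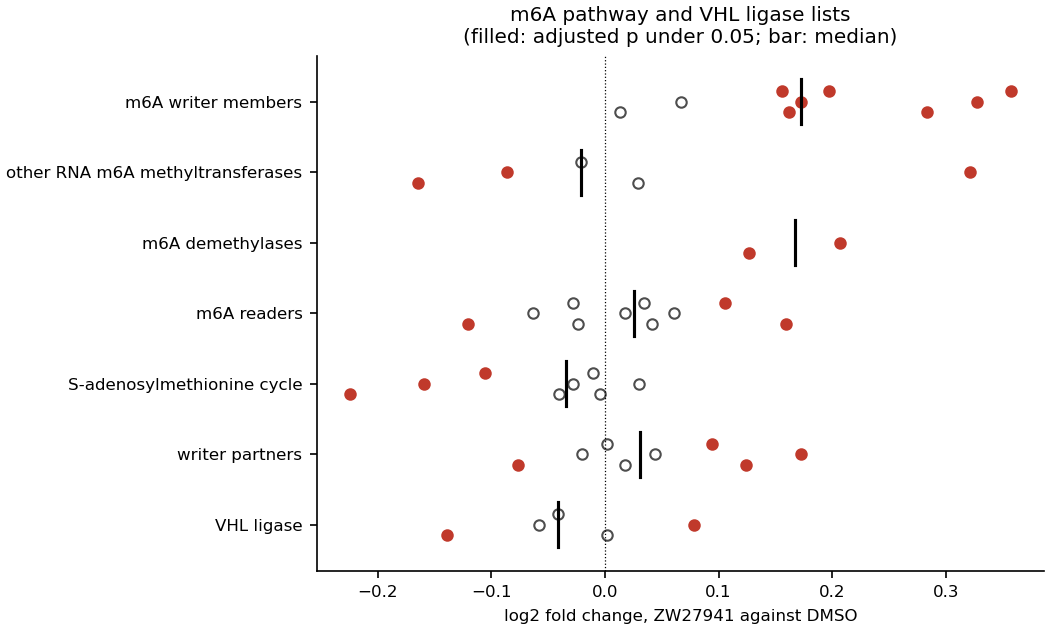
Log2 fold change of each gene tested in the writer group and in 5 other lists of the m6A pathway and 1 of the VHL ligase, filled where the adjusted p is under 0.05, with a bar at the median of each list. The writer group lies at or above 0 (7 of 9 filled, median 0.17), while the other lists, apart from the 2 demethylases, spread to both sides of 0.

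The calls were compared across 15 other ways of fitting the data. In each of them, the 7 genes that rose kept their direction and an adjusted p under 0.05, and the number of members called higher was 7 or 8. Upper quartile normalization gave the lowest log2 fold change of each of these genes outside the fits that left out a library, at 0.33 for RBM15, 0.30 for KIAA1429, 0.26 for CBLL1, 0.17 for METTL16, 0.15 for METTL14, 0.14 for RBM15B and 0.13 for ZC3H13. Under that normalization 2644 genes were called higher and 3643 lower over all genes, where TMM gave 3333 higher and 2816 lower.

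**Figure D5:**
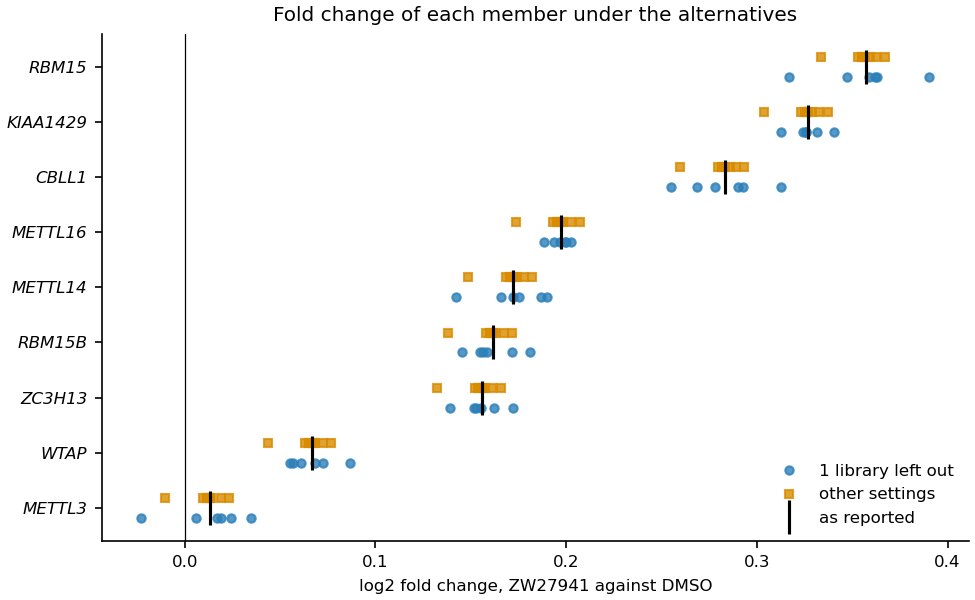
Log2 fold change of ZW27941 against DMSO for each of the 9 genes as reported (vertical bar), with 1 library left out (circles, 6 fits) and under the other settings (squares, 9 fits). The 7 genes that rose stay above 0.13 in every fit, WTAP stays between 0.044 and 0.087, and METTL3 lies on both sides of 0.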

How the data were processed

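Sequencing covered 3 MOLM13 libraries per condition (DMSO, or ZW27941 at 1 μM, both for 24 h). For each library the authors deposited raw counts by gene symbol, with 56305 genes and 5 tallies of unassigned reads, which were left out of the library sizes. The submitters' processing notes name HISAT2, SAMtools 1.19.2, HTSeq 2.0.3 and the build hg38. Annotation and strand setting are not given in the sources used here. Per library 229503413 to 287628269 reads were tallied, more than the raw reads per sample that the labels state, and the reason is not given there.

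Counts were fitted over all 20399 genes that passed filterByExpr, in R 4.3.3 with edgeR 4.0.16 (TMM, quasi-likelihood test, Benjamini-Hochberg adjustment, threshold 0.05). DESeq2 1.42.0 was an alternative. Ratios within a library used counts plus 0.5 and exact two-sided permutation tests in scipy 1.17.1. The steps were tested on simulated data. Counting error was at most 1.42% (RBM15, 4936 counts), and intervals cover these libraries only. Exon lengths and overlaps came from GENCODE v29 and promoters from RefSeq.

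The genes named were all 9 members, MAT2A, the 2 called members with the lowest p in each other list, the 3 genes nearest in profile to METTL3 and to KIAA1429, and pseudogene or antisense rows of a member. A gene that this rule names is not reported here. TRMT112, MAT1A and the genes overlapping members were named after their values were seen. The members and lists were chosen with earlier results of these data known.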

Additional observations from a re-analysis of the deposited data

How the results depend on the processing

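The 7 genes that rose kept their direction and their call in all 105 fits of a gene under an alternative, 15 for each gene. METTL3 changed sign with upper quartile normalization (−0.010) and, among the fits that left out 1 library, ran from −0.023 (without ZW27941 replicate 3) to 0.035. WTAP passed the threshold with library size only (0.077), with no filter on low counts (0.073), with DESeq2's Wald test (0.065) and, at 0.087, without DMSO replicate 1, and the other fits without 1 library went down to 0.055. The cause was not tested. The members' summed share, as a log2 difference, was 0.17 with either other denominator.

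No pairing by the 3 shared replicate numbers was seen. Same-numbered libraries had correlations of their deviations of 0.078, −0.19 and −0.16 and did not each correlate best with their own number. With 3 libraries per condition, such correlations cannot show whether the numbers mark a shared culture or batch. With the replicate number as a block, the log2 fold change was 0.013 for METTL3, 0.36 for RBM15 and 0.33 for KIAA1429, WTAP had an adjusted p of 0.0824 in edgeR, and 7 members were called higher. Each of the 9 genes had at least 4936 counts in every library.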
